A study of Mus musculus with 12 samples.

Results

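Gene expression of the hypothalamus was compared between mice that received aspartame on top of developmental antagonism of the NMDA type of glutamate receptor (ASP+CGP) and mice that received the antagonism alone (CGP). The comparison used the 3 ASP+CGP and the 3 CGP arrays, 6 of 12 arrays in all, chosen by their labels. All mice were male C57Bl/6J aged 21 weeks. Both groups had been exposed to CGP 39551, a competitive NMDAR antagonist that was dosed through the drinking water of the dams at 5 mg/kg of body weight from conception to postnatal day 28 and not afterwards. ASP+CGP mice had in addition taken the sweetener aspartame in water at an estimated 46 mg/kg, at first through the mother and then throughout life. Plain water controls (CON) and mice given aspartame alone (ASP), with 3 arrays each, entered the same model and supplied the aspartame difference without the antagonist. Each group was represented by 1 pool of hypothalamic RNA from all its mice, hybridized to 3 arrays. All p-values below thus reflect how far repeat arrays scattered rather than how far mice did, and aspartame cannot be told apart from anything else in which the pools differed.

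The hypothalamus controls the pituitary gland, which hangs beneath it on a stalk. Releasing and inhibiting hormones from hypothalamic neurons reach the anterior lobe through portal vessels, where distinct cell types make growth hormone, prolactin, the gonadotropins, thyrotropin and the peptides cut from proopiomelanocortin. NMDARs are glutamate-gated calcium channels built from obligatory and regulatory subunits, and aspartame is split in the gut into phenylalanine, aspartate and methanol, of which aspartate is itself an NMDAR agonist.

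With the antagonist in both groups, aspartame was accompanied by fewer changes upward than downward, and the largest by far were falls of the anterior pituitary hormone genes. Of 17186 genes tested, 28 were differentially expressed (DEGs), defined by a limma Benjamini-Hochberg adjusted p under 0.05 and a fold change over 1.4. Of these, 23 were downregulated in ASP+CGP (0.134% of genes tested) and 5 were upregulated (0.0291%). A fold change over 2 was reached by 8 genes and over 4 by 4 genes, all of them downregulated. At the adjusted p alone, 113 genes were lower (0.658%) and 55 higher (0.32%), and 2444 genes had an unadjusted p under 0.05. All 28 DEGs had arrays that did not overlap between the pools, a property that 14.8% of all genes had with ASP+CGP below CGP and 7.7% with ASP+CGP above. Most genes moved little, and over all genes tested the median log2 fold change was −0.02, with quartiles of −0.07 and 0.03 and a median SE of 0.056.

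**Figure D1:**
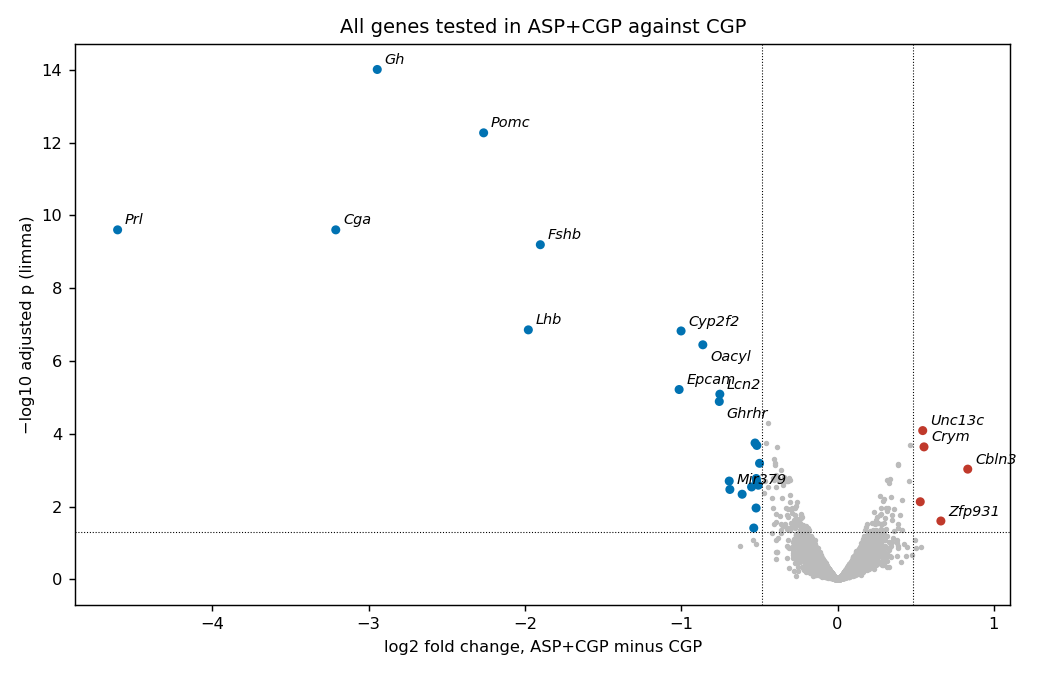
Log2 fold change of ASP+CGP against CGP (x axis) and −log10 of the limma adjusted p (y axis) for 17186 genes; dotted lines mark a fold change of 1.4 and an adjusted p of 0.05, and coloured points are the 28 DEGs, blue where lower and red where higher in ASP+CGP. Prl lies farthest left at −4.61 and Cbln3 farthest right at 0.83.

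The arrays of a pool were closely alike. Pearson correlations over genes ranged from 0.9959 to 0.9965 within CGP, from 0.9922 to 0.9961 within ASP+CGP and from 0.9905 to 0.9947 between the pools. The third ASP+CGP array stood farthest from its pool mean, with an SD of its deviations over genes of 0.0996, where the other 5 arrays compared lay between 0.0490 and 0.0701. Without it, 22 genes were downregulated and 4 upregulated, and 25 of these were among the 28 DEGs. Neurod4, Phxr4 and Zfp931 lost the call and Prg4 gained it.

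All 7 genes of the pituitary hormone subunit list were downregulated, against 0.134% of all genes. Their median log2 fold change was −2.26, against −0.02 over all genes. Averaged over the list, the log2 signal ranged from 11.03 to 11.07 in CGP and from 8.44 to 8.72 in ASP+CGP. In bulk tissue, fewer cells of a type and less RNA per cell cannot be told apart.

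Prl encodes prolactin, the hormone of lactotrophs. Its log2 signal was 12.17, 12.21 and 12.27 in CGP and 7.54, 7.24 and 8.04 in ASP+CGP. Every ASP+CGP array thus lay far below every CGP array, and the ASP+CGP arrays also differed most among themselves, with an SD of 0.40 against 0.05. Prl fell by 4.61 ± 0.145 (SE) on the log2 scale, a 24.4-fold difference (limma adjusted p = 2.5e-10).

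Gh, the growth hormone gene of somatotrophs, gave 13.98, 13.98 and 13.93 in CGP against 11.04, 10.97 and 11.05 in ASP+CGP. The arrays of both pools were tightly grouped, and the change of −2.94 ± 0.039, or 7.70-fold, had the smallest adjusted p of all genes tested (9.8e-15 by limma). Ghrhr encodes the receptor through which the hypothalamic growth hormone releasing hormone acts on these cells. It read 9.29, 9.26 and 9.17 in CGP and 8.43, 8.43 and 8.60 in ASP+CGP. The pools were apart on all arrays, and Ghrhr was downregulated by 0.76 ± 0.060, or 1.69-fold (limma adjusted p = 1.3e-05).

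Cga encodes the alpha subunit shared by the gonadotropins and thyrotropin. Its signals were 12.68, 12.75 and 12.67 in CGP and 9.39, 9.29 and 9.79 in ASP+CGP. The third ASP+CGP array was the highest of its pool, as it was for Prl, and still lay well under all CGP arrays. Cga changed by −3.21 ± 0.102, a 9.26-fold difference (limma adjusted p = 2.5e-10).

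The hormone-specific beta subunits fell to unequal extents. Lhb, of luteinizing hormone, had signals of 10.40, 10.36 and 10.55 in CGP and of 8.49, 8.25 and 8.64 in ASP+CGP, a change of −1.98 ± 0.105. Fshb, of follicle stimulating hormone, had 9.37, 9.23 and 9.18 against 7.25, 7.38 and 7.45, a change of −1.90 ± 0.066. Both gonadotropin beta genes were therefore close to 4-fold lower (3.94-fold and 3.74-fold), with no overlap of arrays. Tshb, of thyrotropin, had 7.43, 7.46 and 7.12 against 6.84, 6.72 and 6.89. The third CGP array came near the ASP+CGP arrays, and the change of −0.52 ± 0.088, or 1.44-fold, was the smallest of the 7 (limma adjusted p = 0.011). The Tshb call was lost when the second ASP+CGP array, the first CGP array or the second CGP array was left out, with values between −0.46 and −0.47.

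Pomc is made by corticotrophs and melanotrophs of the pituitary and also by neurons of the arcuate nucleus, where its product melanocyte stimulating hormone restrains feeding. It read 11.44, 11.48 and 11.50 in CGP and 9.25, 9.20 and 9.18 in ASP+CGP. These were narrow, well-separated sets of arrays, and Pomc changed by −2.26 ± 0.043, a 4.80-fold difference (limma adjusted p = 5.4e-13). The other genes of arcuate feeding circuits gave no DEG, since 0 of 21 feeding and arousal neuropeptide genes and 0 of 22 receptor genes of those circuits were called.

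**Figure D2:**
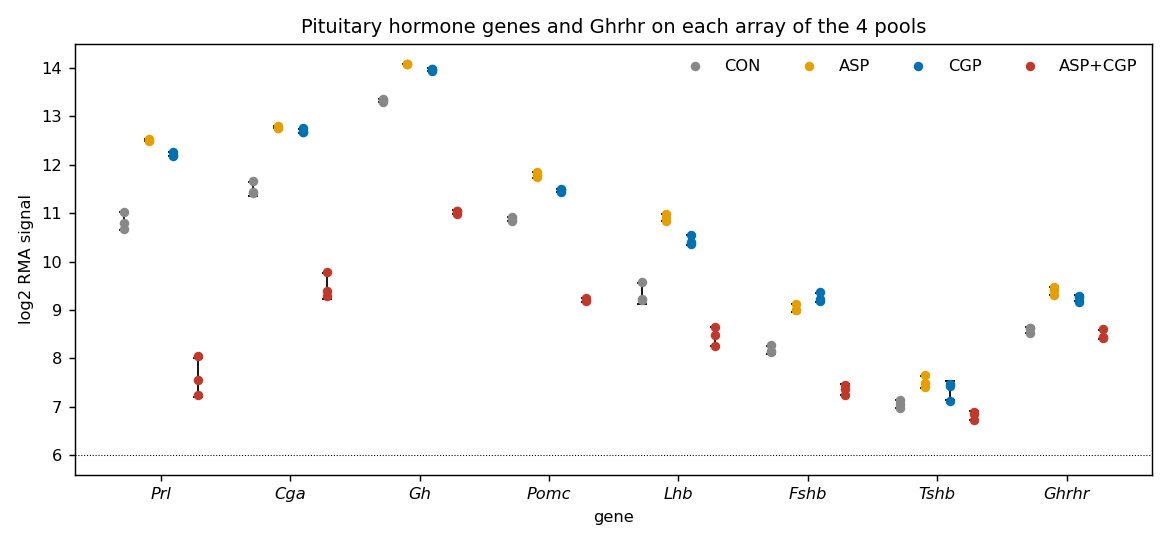
Log2 RMA signal (y axis) of the 7 pituitary hormone subunit genes and Ghrhr (x axis) in the 4 pools, with a point for every array and a bar for the mean ± SD of 3 arrays. The dotted line marks the signal minimum of 6; for every gene drawn the ASP+CGP pool has the lowest mean, and Prl averages 7.61 there against 12.22 in CGP.

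The sequence just before the start of 3 of these genes is shown because they moved together and are made in different pituitary cell types, lactotrophs for Prl, gonadotrophs and thyrotrophs for Cga, and corticotrophs for Pomc. Each is 250 bases on the plus strand from RefSeq promoters of build GRCm38.p6, ending at the base before the annotated start, at chr13:27057320-27057569 (Prl), chr4:34893529-34893778 (Cga) and chr12:3954695-3954944 (Pomc). Capitals mark the letters TATAAA, a form of the TATA box, and TATNCAT, a form of the site of the pituitary factor Pou1f1, found on either strand.
Prl: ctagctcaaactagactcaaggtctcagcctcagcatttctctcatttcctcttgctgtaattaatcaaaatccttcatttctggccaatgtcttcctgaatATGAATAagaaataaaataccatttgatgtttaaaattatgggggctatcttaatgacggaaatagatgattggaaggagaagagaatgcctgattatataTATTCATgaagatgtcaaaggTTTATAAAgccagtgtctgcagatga
Cga: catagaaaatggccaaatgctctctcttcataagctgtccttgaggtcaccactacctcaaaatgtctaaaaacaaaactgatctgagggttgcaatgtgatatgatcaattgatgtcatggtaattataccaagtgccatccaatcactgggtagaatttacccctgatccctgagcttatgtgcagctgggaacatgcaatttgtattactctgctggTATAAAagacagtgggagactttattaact
Pomc: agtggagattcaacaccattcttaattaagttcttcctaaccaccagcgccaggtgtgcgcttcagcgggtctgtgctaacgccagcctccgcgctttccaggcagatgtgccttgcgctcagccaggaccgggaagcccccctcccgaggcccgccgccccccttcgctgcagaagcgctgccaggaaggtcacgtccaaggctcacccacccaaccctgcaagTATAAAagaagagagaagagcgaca
Entries were found for 6 of the 7 hormone genes (not for Gh). TATAAA was present in all 6 and in 12.4% of all 32851 promoters of the same length, while TATNCAT was present in Prl alone of the 6 and in 7.92% of all promoters. These are matches of letters, and nothing measured here bears on binding.

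Of the 9 receptors through which hypothalamic factors act on the pituitary, Ghrhr was the only DEG, and the list median was −0.02. Gnrhr, the gonadotropin releasing hormone receptor, changed by −0.39 ± 0.057 (limma adjusted p = 0.003) without reaching the fold threshold. Its signals of 6.21, 6.21 and 6.34 in CGP and 5.83, 5.89 and 5.86 in ASP+CGP lay on either side of the signal minimum of 6, without overlap. Drd2, the dopamine receptor by which prolactin release is inhibited and which striatal neurons also express, was 0.18 ± 0.037 higher (limma adjusted p = 0.036). Without the third ASP+CGP array Drd2 did not pass the adjusted p (0.055 by limma).

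Among 10 measured transcription factors of pituitary lineages, 10 lay below 0, as 10404 of all 17186 genes did, with a median of −0.11. Over all genes 0.134% were downregulated, and in this list 1 was. This was Neurod4, a basic helix-loop-helix factor, at 6.30, 6.39 and 6.22 in CGP against 5.94, 5.71 and 5.70 in ASP+CGP (−0.52 ± 0.069, limma adjusted p = 0.0017). It passed the signal minimum only in the pools in which it was high, and its call was lost without the second ASP+CGP, the third ASP+CGP or the second CGP array (−0.48 in each case). Tbx19, which activates Pomc transcription in corticotrophs, gave −0.41 ± 0.081 and passed the adjusted p alone (0.03 by limma). Pitx1 and Lhx3, which act early in pituitary development, gave −0.22 ± 0.058 and −0.08 ± 0.041 and passed neither threshold. The values of Gnrhr, Tbx19, Pitx1, Lhx3, Drd2 and all further genes under the fold threshold were chosen for mention after they were seen, apart from those of the releasing hormone, vasopressin and oxytocin, and NMDAR lists and Actb.

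Several further downregulated genes are known from epithelia. Of 16 measured genes of the secretory epithelium list, 4 were downregulated, against 0.134% of all genes, and the median was −0.09. Of these 16 genes 11 lay below 0, close to the share over all genes. Its mean signal was 7.33 to 7.34 in CGP and 7.07 to 7.13 in ASP+CGP. Epcam, the epithelial cell adhesion molecule, read 7.75, 7.73 and 7.63 in CGP and 6.56, 6.75 and 6.76 in ASP+CGP. The pools were separate, and Epcam changed by −1.01 ± 0.075, or 2.02-fold (limma adjusted p = 6.1e-06).

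Cyp2f2, a cytochrome P450 best known from airway secretory cells, read 9.02, 8.97 and 8.98 in CGP and 8.12, 7.95 and 7.89 in ASP+CGP. All ASP+CGP arrays were lower, with a change of −1.001 ± 0.054, or 2.00-fold (limma adjusted p = 1.5e-07). Lcn2, a secreted protein that binds iron-carrying siderophores, went from 8.09, 8.05 and 8.15 to 7.34, 7.32 and 7.36, and Dapl1 from 8.42, 8.56 and 8.55 to 7.94, 7.94 and 8.09. Lcn2 was the more clearly separated of this pair, at −0.75 ± 0.057 against −0.52 ± 0.072.

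Outside any list, Oacyl, Tmem184a and Rab25 were also downregulated. Oacyl read 8.21, 8.09 and 8.20 in CGP and 7.29, 7.28 and 7.33 in ASP+CGP (−0.86 ± 0.050, limma adjusted p = 3.6e-07). Tmem184a read 7.78, 7.74 and 7.69 against 6.80, 7.14 and 7.20 (−0.69 ± 0.095), with the first ASP+CGP array the lowest, and did not pass in the ANOVA contrast without moderation (adjusted p = 0.053). Rab25, a small GTPase of epithelial recycling endosomes, read 7.52, 7.59 and 7.77 against 7.12, 7.04 and 7.20 (−0.51 ± 0.072), and was no DEG without its second ASP+CGP (−0.47) or the third CGP array (−0.44). Epcam, Cyp2f2, Oacyl, Tmem184a and Rab25 had the same order of pool means as Prl, Gh, Cga, Pomc, Lhb, Tshb and Ghrhr, lowest in ASP+CGP, then CON, then CGP, and highest in ASP. The order was not particular to these genes. H2-Aa, of the MHC class II list, had it too, at 7.58 in ASP+CGP, 8.01 in CON, 8.08 in CGP and 9.41 in ASP. Whether the same cells carry any of these genes was not tested.

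Genes of the meninges, the connective tissue sheets that wrap the brain, were lower as a group by small amounts. Of 25 measured genes of the meninges and fibroblast list, 23 lay below 0, 19 had arrays that did not overlap with ASP+CGP lower, and the median was −0.23. Over all genes, 10404 of 17186 lay below 0, 14.8% did not overlap in that direction and the median was −0.02. At the adjusted p alone 10 of the list were lower, against 0.658% of all genes, and 1 was a DEG. That was Fmod, the collagen-binding proteoglycan fibromodulin, at 9.24, 9.19 and 9.36 in CGP against 8.73, 8.70 and 8.81 in ASP+CGP (−0.52 ± 0.053, limma adjusted p = 0.00021), and its call was lost without the third CGP array (−0.47). The list averaged 8.79 to 8.81 in CGP and 8.54 to 8.60 in ASP+CGP, so the pools did not overlap.

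The other 9 that passed the adjusted p alone covered extracellular matrix and transport. Among matrix genes, Prg4, which encodes the lubricant lubricin, changed by −0.46 ± 0.064, and the proteoglycan genes Dcn and Bgn by −0.32 ± 0.055 and −0.30 ± 0.051. Among transporters, the values were −0.41 ± 0.046 for Slc13a4 (sulfate), −0.39 ± 0.041 for Slc6a20a (proline) and −0.30 ± 0.041 for Slc22a6 (organic anions). Aldh1a2, which makes retinoic acid, gave −0.41 ± 0.055, Islr −0.34 ± 0.045 and the growth factor gene Igf2 −0.31 ± 0.041. The GABA transporter gene Slc6a13, which is expressed in meninges and stands in the GABA list, gave −0.44 ± 0.040 (limma adjusted p = 5e-05). Without the third ASP+CGP array 13 of the 25 genes passed the adjusted p, so the group did not rest on that array. Genes of the choroid plexus gave 0 calls among 14 with a median of −0.02.

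Of 6 measured genes of the MHC class II list, which holds the peptide-presenting molecules and their regulator, 1 was downregulated. At the adjusted p alone 3 were lower and the median was −0.22. Over all genes, 0.134% were downregulated and 0.658% were lower at the adjusted p alone. The highest of the list was Ciita, the regulator, at 0.06. H2-Aa, an alpha chain, read 8.07, 8.13 and 8.03 in CGP and 7.58, 7.50 and 7.66 in ASP+CGP (−0.50 ± 0.058, 1.41-fold, limma adjusted p = 0.00065). This is just past the fold threshold of 1.4, and the call was lost without the second ASP+CGP (−0.46) or the second CGP array (−0.47) and under further quantile normalization (−0.48). Cd74, the invariant chain, gave −0.38 ± 0.051 and H2-Ab1, the beta chain, −0.30 ± 0.065, both past the adjusted p alone. Without the third ASP+CGP array H2-Ab1 gave −0.24 and did not pass it (limma adjusted p = 0.12). No gene of the microglia and complement list was called (0 of 14, median 0.03).

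Another group of downregulated genes lay in a microRNA cluster. The genes from Mir379 to Mir410 neighbour each other within chr12:109709060-109743795 (GRCm38.p6, plus strand), a stretch of the imprinted Dlk1-Dio3 domain that is expressed from the maternal chromosome and processed from long transcripts. The array probe sets named for these genes read precursor RNA, so mature microRNA was not measured. Mature sequences are shown for the 2 DEGs of the cluster and for their neighbour Mir411, from RefSeq, with bases 2 to 8 (the seed) in capitals.
miR-379-5p: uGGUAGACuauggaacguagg
miR-411-5p: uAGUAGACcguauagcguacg
miR-380-5p: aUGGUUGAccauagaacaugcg
miR-379-3p: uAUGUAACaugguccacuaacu
miR-411-3p: uAUGUAACacgguccacuaacc
miR-380-3p: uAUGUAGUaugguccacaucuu
The seed AUGUAAC, of miR-379-3p and miR-411-3p, was the only seed shared among the 51 mature sequences found for the cluster genes measured.

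Mir379 read 6.84, 7.19 and 6.88 in CGP and 6.42, 6.32 and 6.10 in ASP+CGP, with no overlap. It was downregulated by 0.69 ± 0.101, or 1.61-fold (limma adjusted p = 0.0034), and did not pass in the ANOVA contrast without moderation (adjusted p = 0.062). Mir380 read 7.49, 7.62 and 7.42 against 6.88, 6.74 and 7.29 (−0.54 ± 0.112, limma adjusted p = 0.039). The third ASP+CGP array came close to CGP, and the call was lost in 8 of 20 alternative fits, including those without the first or second ASP+CGP array or without any single CGP array. Mir411 read 7.40, 7.13 and 7.16 against 6.70, 6.93 and 6.19 (−0.62 ± 0.175) and did not pass the test (limma adjusted p = 0.12).

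Of 38 cluster genes in RefSeq, 27 were measured, 25 of these lay below 0, and 21 had ASP+CGP arrays wholly under the CGP arrays. The median was −0.28, and 9 were lower at the adjusted p alone. Over all genes, 14.8% did not overlap in that direction and 0.658% were lower at the adjusted p. Of the 161 other microRNA genes measured, 116 lay below 0, 28 did not overlap with ASP+CGP lower and 4 were lower at the adjusted p, with a median of −0.05. Further members past the adjusted p included Mir323 (−0.47 ± 0.071), Mir679 (−0.42 ± 0.066), Mir329 (−0.40 ± 0.047), Mir300 (−0.40 ± 0.071) and Mir134 (−0.32 ± 0.044). Without the third ASP+CGP array 8 passed and the median was −0.26. Of the long transcripts upstream, Meg3 gave −0.20 ± 0.041 (limma adjusted p = 0.034) and Rian −0.10 ± 0.077 (limma adjusted p = 0.57). Without the third ASP+CGP array Meg3 gave −0.17 and did not pass the adjusted p (0.079 by limma).

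**Figure D3:**
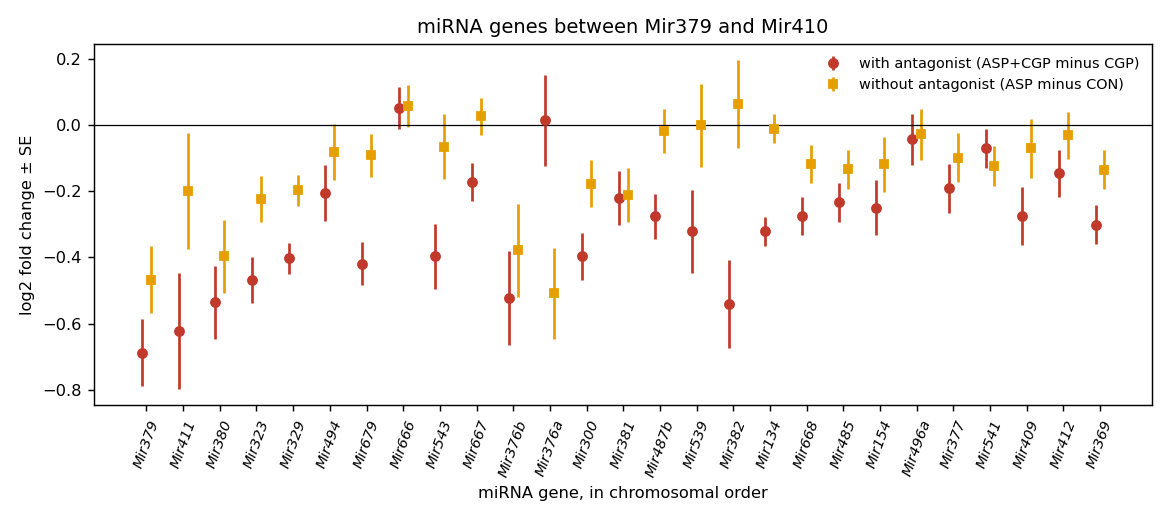
Log2 fold change ± SE (y axis) of 27 microRNA genes of the Mir379 to Mir410 cluster in chromosomal order (x axis), for ASP+CGP minus CGP (circles) and ASP minus CON (squares). The circles lie below 0 for 25 genes, with a median of −0.28, and the squares have a median of −0.12.

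The remaining downregulated genes were little characterized transcripts. Phxr4 changed by −0.61 ± 0.093, 9530091C08Rik by −0.55 ± 0.079 and 1700086D15Rik by −0.53 ± 0.053. In all 3 the arrays of the pools were separate, but the third ASP+CGP array of Phxr4 (6.62, against 6.97 and 7.09) set the size of its change, and without it the gene was no DEG (−0.47). Without the first ASP+CGP array, neither 9530091C08Rik (−0.45) nor 1700086D15Rik (−0.48) was a DEG.

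The 5 upregulated genes included several that cerebellar granule cells are known to express. Cbln3, a cerebellin secreted by granule cells, read 6.85, 7.05 and 6.90 in CGP and 7.60, 7.90 and 7.80 in ASP+CGP (0.83 ± 0.102, 1.78-fold, limma adjusted p = 0.00094). Gabra6, a GABA-A receptor subunit of granule cells, read 5.92, 6.07 and 5.89 against 6.43, 6.50 and 6.55 (0.53 ± 0.086, limma adjusted p = 0.0074). Its CGP arrays lay around the signal minimum of 6, so the gene was kept mainly through the pool in which it was high, and it lost its call without the third CGP array (0.49).

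Unc13c, a synaptic vesicle priming protein found mainly in cerebellum, read 9.42, 9.46 and 9.47 in CGP and 9.96, 10.05 and 9.97 in ASP+CGP. The rise of 0.55 ± 0.051 (limma adjusted p = 8.2e-05) came from the brightest-averaging of its 7 probe sets, all of which lay above 0, between 0.14 and 0.57. With the mean of its probe sets the value was 0.37, under the fold threshold. Of 19 cerebellum list genes, which do not hold Unc13c, 2 were upregulated, 9 had ASP+CGP arrays wholly above CGP and the median was 0.06. Over all genes, 0.0291% were upregulated and 7.7% had ASP+CGP arrays wholly above CGP. In the list 13 genes lay above 0 and 6 below, down to −0.21 for Zic2. The list averaged 8.60 to 8.63 in CGP and 8.72 to 8.76 in ASP+CGP.

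Crym encodes a cytosolic thyroid hormone binding protein and stands in the ependyma and tanycyte list. It read 8.32, 8.39 and 8.50 in CGP and 8.87, 8.97 and 9.02 in ASP+CGP (0.55 ± 0.058, limma adjusted p = 0.00023). The other 18 genes of that list gave no DEG, and its median was −0.03. Zfp931, a zinc finger gene, read 5.67, 5.33 and 5.22 against 6.05, 6.14 and 6.01 (0.66 ± 0.127, limma adjusted p = 0.025). It reached the signal minimum of 6 on the 3 ASP+CGP arrays alone, so it was tested only because of the pool in which it was high. It lost its call in 8 of 18 alternative fits.

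Striatal genes moved by less than the fold threshold. Of 11, 10 lay above 0, 6 had arrays that did not overlap with ASP+CGP higher, 3 passed the adjusted p alone and the median was 0.12. Over all genes, 6782 of 17186 lay above 0, 7.7% did not overlap in that direction and 0.32% were higher at the adjusted p. Without the third ASP+CGP array 2 striatal genes passed it and the list median was 0.18. Ppp1r1b, the dopamine-regulated phosphatase inhibitor of striatal projection neurons, read 9.35, 9.38 and 9.31 in CGP and 9.86, 9.80 and 9.76 in ASP+CGP (0.46 ± 0.047, limma adjusted p = 0.00021). Pde10a, a striatal phosphodiesterase, gave 0.33 ± 0.046, and the enkephalin gene Penk of the neuropeptide list 0.27 ± 0.042. Among habenula genes, 9 of 10 lay below 0, against 10404 of all 17186 genes, and the median was −0.16. In this list Chrnb4, a nicotinic receptor subunit, gave −0.33 ± 0.046 (limma adjusted p = 0.002).

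The hypothalamic genes that govern the pituitary gave no call beside these falls. Of 9 genes for releasing and inhibiting hormones and dopamine, 0 were DEGs or passed the adjusted p, and values ran from −0.10 ± 0.063 (Tac2) to 0.13 ± 0.067 (Slc6a3, the dopamine transporter). Ghrh gave −0.01 ± 0.080, Gnrh1 −0.04 ± 0.063, Crh −0.05 ± 0.072, Trh −0.03 ± 0.039, Kiss1 −0.05 ± 0.061, Sst 0.05 ± 0.049 and Th 0.07 ± 0.070. Without the third ASP+CGP array several of these were larger, at −0.17 for Tac2, 0.21 for Slc6a3, 0.16 for Th and −0.12 for Gnrh1, and still none passed the adjusted p. Avp and Oxt, the hormones of the posterior lobe, gave −0.20 ± 0.044 (limma adjusted p = 0.052) and −0.12 ± 0.051 (0.32). For both, the ASP+CGP arrays lay wholly below the CGP arrays, as they did for 14.8% of all genes. Signals of Sst lay between 12.79 and 12.89 and those of Oxt between 11.75 and 11.91 on all 6 arrays. Of 26 transcription factors of hypothalamic nuclei none was called either, with a median of −0.02.

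The target of the antagonist was measured through 8 genes of the NMDAR list, of which 0 were DEGs or passed the adjusted p. Grin1, the obligatory subunit, was not analysed here. Values ran from −0.14 ± 0.081 for Grin2d to 0.10 ± 0.054 for Dao, the enzyme that degrades the co-agonist D-serine. Grin2a gave −0.03 ± 0.038, Grin2b 0.03 ± 0.084, Grin2c −0.04 ± 0.046, Grin3a −0.03 ± 0.067, Grin3b 0.04 ± 0.040 and the serine racemase gene Srr 0.03 ± 0.055. Grin2d was as high on the first and second ASP+CGP arrays (9.37 and 9.41) as in CGP (9.43, 9.42 and 9.40), and only the third ASP+CGP array was lower (9.04). None of 26 other glutamate genes was called (median −0.03). Actb, a reference gene, gave −0.07 ± 0.051.

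Of the 43 gene lists in all, 34 held no DEG, with medians between −0.16 for the habenula and 0.12 for the striatum. The handling of the products of aspartame was among them, with 0 of 14 genes called for phenylalanine and tetrahydrobiopterin (median 0.03), 0 of 8 for aspartate (−0.06) and 0 of 11 for methanol and formaldehyde (−0.04). Lists for neurons in general (0 of 9, median 0.04), oligodendrocytes (0 of 11, −0.01), circadian clock genes (0 of 16, −0.02) and blood (0 of 4, 0.03) held no call either. The blood list was measured without its haemoglobin genes. These counts and medians describe the lists, and a list without a call is not shown to be equal in the pools.

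**Figure D4:**
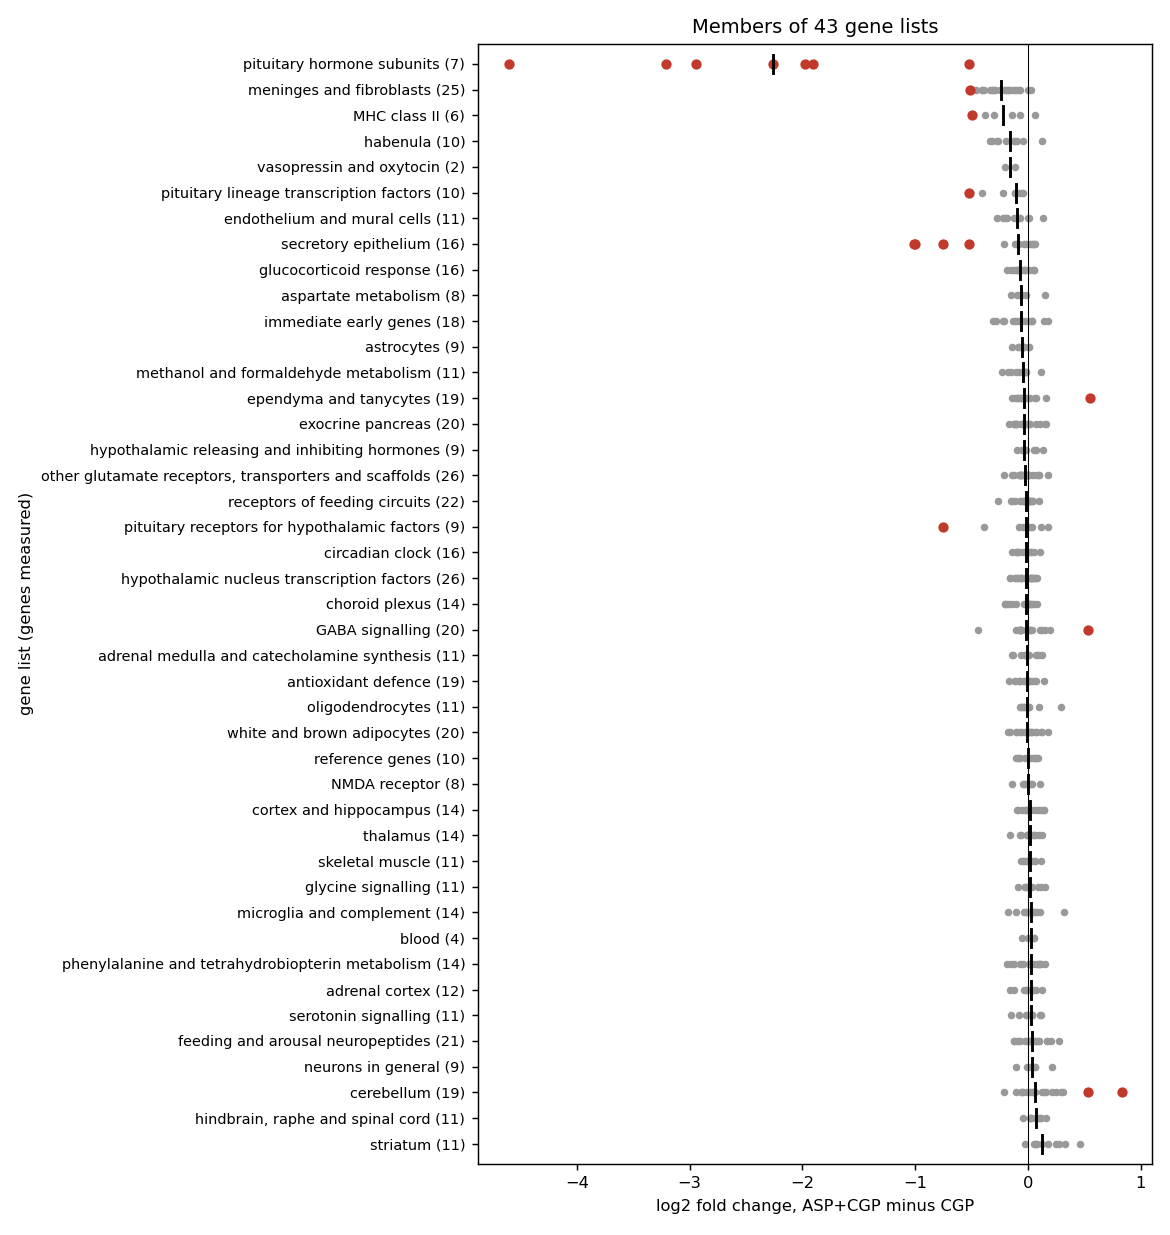
Log2 fold change of ASP+CGP against CGP (x axis) of the measured members of 43 gene lists (y axis, number measured in parentheses). Each point is a gene, red where it is a DEG, and the black bar is the list median, which is −2.26 for pituitary hormone subunits, −0.23 for meninges and fibroblasts and 0.12 for striatum.

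Whether aspartame was accompanied by the same changes without the antagonist was asked with the ASP and CON arrays, which share no array with the comparison above. ASP differed from CON in 180 genes (1.05% of genes tested). None of the 23 genes downregulated with the antagonist was downregulated there, 17 lay above 0 and 12 were upregulated. The interaction, that is the aspartame difference with the antagonist minus that without it, was called by the same thresholds in 257 genes (1.5% of genes tested), 25 higher and 232 lower. It included 17 of the 23 downregulated and all 5 upregulated genes. The falls in ASP+CGP themselves enter the interaction, so these last counts are no separate evidence.

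The pituitary hormone genes took opposite directions on the 2 backgrounds. Prl was 1.68 ± 0.145 higher in ASP (12.51 ± 0.02, SD, 3 arrays) than in CON (10.83 ± 0.18), against −4.61 with the antagonist, an interaction of −6.28 ± 0.204 (limma adjusted p = 7.9e-11). Lhb rose by 1.57 ± 0.105 without the antagonist, Cga by 1.27 ± 0.102, Pomc by 0.91 ± 0.043, Fshb by 0.86 ± 0.066 and Gh by 0.75 ± 0.039. Their interactions were −3.54, −4.48, −3.17, −2.76 and −3.69. Tshb was 0.46 ± 0.088 higher in ASP, short of the fold threshold, with an interaction of −0.98 ± 0.125. In pool means, CGP stood above CON for all 7 and ASP+CGP was the lowest of the 4 pools, without a test of those differences here.

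Among epithelial genes, Epcam was 1.05 ± 0.075 higher without the antagonist and Cyp2f2 0.63 ± 0.054 higher, with interactions of −2.06 and −1.63. Lcn2 (0.09 ± 0.057) and Dapl1 (0.12 ± 0.072) did not pass the test there. H2-Aa, Cd74 and H2-Ab1 rose by 1.401 ± 0.058, 1.49 ± 0.051 and 1.33 ± 0.065 without the antagonist.

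Of the 23 downregulated genes, 6 lay below 0 without the antagonist too, Mir379, Mir380, Fmod, Phxr4, 9530091C08Rik and 1700086D15Rik. Mir379 was 0.47 ± 0.101 lower in ASP than in CON (limma adjusted p = 0.017). Mir380 was 0.40 ± 0.112 lower, which did not pass the test (limma adjusted p = 0.067). The interactions of Mir379 and Mir380, −0.22 ± 0.143 and −0.14 ± 0.158, did not pass it either (limma adjusted p = 0.44 and 0.68). None of the 27 cluster genes was called in ASP against CON or in the interaction, and the cluster median without the antagonist was −0.12. Single members departed from this. The interaction of Mir134 passed the adjusted p alone (−0.31 ± 0.062, limma adjusted p = 0.011), with −0.01 ± 0.044 in ASP against CON. Mir382 gave −0.54 with and 0.06 without the antagonist and Mir376a 0.02 and −0.51, with interactions that did not pass the test (limma adjusted p = 0.10 and 0.18). Fmod was 0.27 ± 0.053 lower without the antagonist (interaction −0.25 ± 0.076, limma adjusted p = 0.096), and Prg4 0.39 ± 0.064 lower. In ASP against CON, 1700086D15Rik gave −0.32 ± 0.053 (limma adjusted p = 0.0023). Phxr4 (−0.34 ± 0.093) and 9530091C08Rik (−0.26 ± 0.079) did not pass the test there (limma adjusted p = 0.059 and 0.099).

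**Figure D5:**
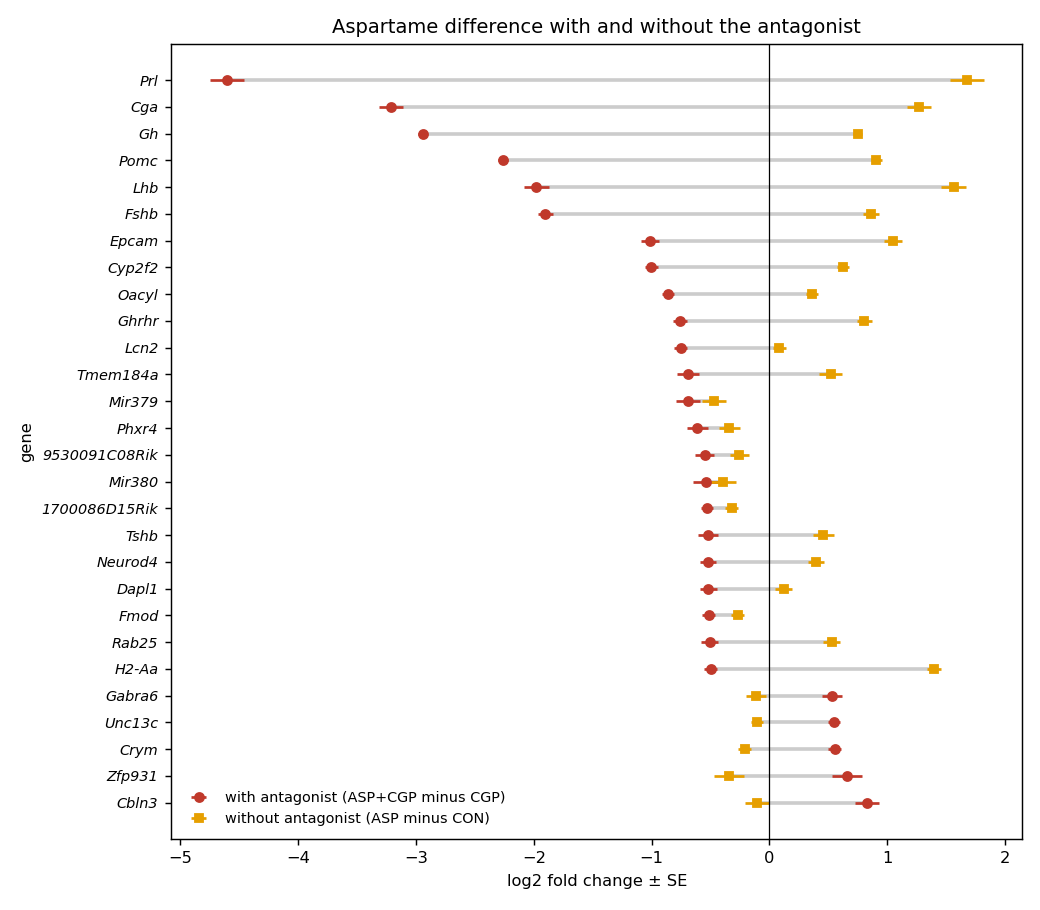
Log2 fold change ± SE (x axis) of the 28 DEGs (y axis) for the aspartame difference with the antagonist (circles, ASP+CGP minus CGP) and without it (squares, ASP minus CON). Of the 23 genes lower with the antagonist, 17 lie above 0 without it, and of the 5 higher with it, 0 lie above 0 without it.

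Genes of the adrenal cortex, exocrine pancreas and adipocyte lists set the backgrounds apart in the other way, in that most of them differed in ASP alone. The study read the steroid synthesis genes raised in ASP as neurosteroidogenesis of the hypothalamus. Which tissue the RNA came from was not tested here. Of 12 adrenal cortex genes, 11 were upregulated in ASP against CON and 0 differed between ASP+CGP and CGP. Cyp11b1, the last enzyme of corticosterone synthesis, averaged 12.40 ± 0.03 in ASP, 6.36 ± 0.09 in CON, 6.40 ± 0.09 in CGP and 6.48 ± 0.08 in ASP+CGP (SD, 3 arrays each). Its aspartame difference was 0.07 ± 0.059 with the antagonist and 6.04 ± 0.059 without it, and Cyp21a1 gave 0.03 ± 0.085 and 5.86 ± 0.085.

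Of 20 exocrine pancreas genes, 17 were upregulated in ASP and 0 were called with the antagonist, where the digestive enzyme genes Cpa1 and Ctrb1 gave −0.12 ± 0.064 and −0.04 ± 0.074. Of 20 adipocyte genes, 14 were upregulated in ASP and 0 were called with the antagonist, where Fabp4 gave 0.13 ± 0.082, Adipoq −0.05 ± 0.080 and the brown fat gene Ucp1 −0.09 ± 0.064. All 3 lists had nearly the same mean level in the 2 pools compared, 6.59 to 6.65 in CGP and 6.60 to 6.65 in ASP+CGP for the adrenal cortex, 6.94 to 7.004 and 6.86 to 7.02 for the pancreas, and 7.24 to 7.28 in both for adipocytes.

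Slc6a5, a glycine transporter gene of hindbrain and spinal cord, was set apart by the CON pool instead. It averaged 9.44 ± 0.15 in CON, 8.01 ± 0.12 in ASP, 7.41 ± 0.07 in CGP and 7.53 ± 0.11 in ASP+CGP (SD, 3 arrays each). Its aspartame difference was −1.43 ± 0.081 without the antagonist and 0.12 ± 0.081 with it, where both pools compared were already the lowest.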

How the data were processed

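Hypothalamic RNA, pooled per group, was measured with 12 arrays of the type Affymetrix Mouse Gene 1.0 ST, with groups and replicate numbers taken from the labels. The deposited values are log2 signals, which the authors made with RMA in Partek (background correction, quantile normalization, median polish). This scaling removes changes shared by most genes and understates fold changes near background. The precision is set by the number of arrays, 3 per group.

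Of 29149 probe sets, 19019 had 1 gene symbol in the platform annotation (1197 had several and 8933 none, and these were not used). For 18947 the identifier was found in RefSeq, assembly GRCm38.p6, and 0 symbols differed. The signal had to reach 6 on 3 or more arrays (18810 probe sets), and the one with the highest mean was taken per gene, leaving 17186 genes.

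Group means of all 12 arrays were fitted with limma 3.58.1 (lmFit, eBayes) in R 4.3.3, with 8 residual and 5.43 prior degrees of freedom. The contrasts were ASP+CGP minus CGP, ASP minus CON, and their difference (the interaction). A call needed an adjusted p (Benjamini-Hochberg, per contrast) under 0.05 and a fold change over 1.4, after the thresholds of the study. Values after ± are SEs of the fit unless SD is stated. An exact permutation test, whose smallest two-sided p with 3 arrays against 3 is 0.1, was not used.

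The arrays compared and the 43 gene lists were chosen with earlier results of these data known, so list counts are descriptions. Named genes were the 15 largest rises and 15 largest falls among DEGs without array overlap, up to 4 called members per list, all members of the pituitary hormone, releasing hormone, vasopressin and oxytocin and NMDAR lists, and Actb. Where another list member is named, it has the largest rise or fall of its list or was picked after its values were seen. Alternatives covered the filter, the probe set rule, further normalization, the test, the thresholds, the adjustment, the replicate number as a block and leaving out arrays. The steps were tested on simulated data. RefSeq sequences were read from tables of the same assembly, and mature microRNAs were found for 27 of 27 cluster genes.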

Additional observations from a re-analysis of the deposited data

Results flagged for a closer look

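The aspartame difference with the antagonist was tested against that without it, and the genes below are those named above in which the 2 differed past both thresholds. Each value is the interaction on the log2 scale, ASP+CGP minus CGP less ASP minus CON, by limma. All 7 hormone subunit genes were included, Prl (−6.28), Cga (−4.48), Gh (−3.69), Lhb (−3.54), Pomc (−3.17), Fshb (−2.76) and Tshb (−0.98), together with the pituitary receptor and lineage genes Ghrhr (−1.56), Neurod4 (−0.92), Gnrhr (−0.78) and Tbx19 (−0.67). In these the aspartame difference lay above 0 without the antagonist and below 0 with it. The same held in direction for Epcam (−2.06), Cyp2f2 (−1.63), Oacyl (−1.22), Tmem184a (−1.21), Rab25 (−1.04), Lcn2 (−0.84) and Dapl1 (−0.64), for the antigen presentation genes H2-Aa (−1.90), Cd74 (−1.87) and H2-Ab1 (−1.63) and for Bgn (−1.05), Dcn (−0.78) and Chrnb4 (−0.86).

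In genes of the adrenal cortex, exocrine pancreas and adipocyte lists the interaction came from the ASP pool. Their aspartame difference with the antagonist passed no test. The genes were Cyp11b1 (−5.97), Cyp21a1 (−5.83), Fabp4 (−3.89), Ctrb1 (−3.26), Cpa1 (−2.74), Ucp1 (−2.67) and Adipoq (−2.42). Th, which the adrenal medulla shares with dopamine neurons, gave −0.59. It fell short of the threshold, at −0.46, without the third arrays of ASP+CGP and CON. A positive interaction was found in the 5 upregulated genes, Zfp931 (1.004), Cbln3 (0.94), Crym (0.76), Unc13c (0.65) and Gabra6 (0.64), and in Slc6a5 (1.55). The Unc13c interaction was 0.46, under the fold threshold, with the mean of its probe sets.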

How the results depend on the processing

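No gene named changed its direction while called. The 23 genes lower in ASP+CGP vs CGP became 9 in a limma test against a fold change of 1.4, 113 at the adjusted p alone and 8 over 2-fold, with a count between 20 and 22 when 1 array was left out. The 5 genes higher in ASP+CGP vs CGP became 3 with a signal minimum of 7, 8 with every probe set on its own, 3 in the ANOVA contrast without moderation, 0 in the test against 1.4-fold, 55 at the adjusted p alone and 0 over 2-fold. They numbered from 3 to 6 when 1 array was left out, with 3 without the third CGP array. The 257 genes called in the interaction became 97 in the test against 1.4-fold and ranged from 248 to 289 when 1 array was left out. Leaving out the ASP and CON arrays, and the third arrays of ASP+CGP and CON together (4 higher, 22 lower, 264 in the interaction), was chosen after seeing the data. Of the 28 DEGs, 9 kept their call under every other filter, probe set rule, normalization, test, adjustment and left-out array run, the 6 hormone genes other than Tshb with Epcam, Cyp2f2 and Oacyl, and 19 lost it at least once, all of them in the test against 1.4-fold. The ANOVA contrast without moderation lost 8 of these (Tmem184a, Mir379, Mir380, Phxr4, 9530091C08Rik, Tshb, Gabra6 and Zfp931). The cause was not tested.

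Same-numbered arrays of ASP+CGP and CGP deviated from their pool means with correlations of −0.06, 0.07 and 0.00 over genes, so the numbers were not taken to pair them. With the replicate number as a block, 5 genes were higher, 26 lower and the genes called in the interaction numbered 259.

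Further quantile normalization and median subtraction moved the median of all genes from −0.02 to −0.01. At low signals, as of Gabra6, Zfp931, Neurod4 and Gnrhr, fold changes are understated by RMA.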
